A study of Mus musculus with 15 samples.

Results

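ABC efflux transporters of drugs and conjugates were examined in colon scrapings of mice fed heme. The group comprises 7 genes, the P-glycoprotein genes Abcb1a and Abcb1b and the multidrug resistance-associated protein genes Abcc1, Abcc2, Abcc3, Abcc4 and Abcc5. They were taken by symbol, using every probe set that the array annotation gives 1 of these symbols and no other. This yielded 19 probe sets for 7 of the 18194 genes that the array represents by such probe sets. Male C57BL/6 mice, an inbred laboratory strain, were 11 weeks old and were kept for 14 days on food low in calcium and rich in fat, which supplied 40% of its energy. The food held heme at 0.5 umol per g for the heme group (9 mice) and no heme for the control group (6 mice). Each mouse was hybridised to its own Affymetrix array, so replicates are animals. The series title asks about inhibitors of proliferation in the turnover of the colon epithelium.

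ABC transporters use ATP to move substrates out of cells. In the intestine, P-glycoprotein and Abcc2 sit in the apical membrane and return drugs and conjugates to the lumen, while Abcc1 and Abcc3 sit in the basolateral membrane and pass conjugates towards the blood. Abcc proteins export molecules joined to glutathione, glucuronic acid or sulfate. Heme, the iron porphyrin of red meat, can promote oxidation, and several genes of this family are known targets of receptors and sensors of foreign and oxidising compounds.

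Values are deposited log2 expression per probe set. Signals under 20 (log2 4.32) were treated as background, with that value called the floor below, and 15717 probe sets over it on at least 6 arrays were tested with limma and called changed at an adjusted p under 0.05. Array medians ran from 3.11 to 3.24. Epithelial transcripts were well represented, since all 8 colon epithelium markers and all 8 surface colonocyte markers were tested. The mean level of the 8 epithelium markers ran from 12.24 to 12.42 in heme mice and from 12.21 to 12.40 in control mice. Of the endothelial markers 0 of 7 were tested, with Pecam1, Cdh5, Kdr, Tek and Cldn5 under the floor on all arrays. All 4 tested smooth muscle markers were called lower in heme mice. Their mean level ran from 4.88 to 6.62 in heme mice and from 6.08 to 9.76 in control mice. Markers of other cell types also moved with the diet. Goblet cell markers were called lower in 5 of 6 tested cases, with a mean level of 12.84 to 13.06 in heme mice and 13.10 to 13.27 in control mice. Enteroendocrine markers were called lower in 3 of 6 (Chga, Chgb and Tph1), with a mean level of 8.83 to 9.32 in heme mice and 9.30 to 10.41 in control mice. All 3 tested tuft cell markers (Dclk1, Trpm5 and Avil) were called lower, with a mean level of 3.97 to 4.65 in heme mice and 5.13 to 5.55 in control mice, and Pou2f3 was under the floor on all arrays. Gzma, a protease of cytotoxic lymphocytes and the only T lymphocyte marker tested, was called lower, at 3.42 to 4.42 in heme mice and 6.58 to 8.02 in control mice. Cd3e, Cd3g, Cd8a and Cd4 were under the floor on all arrays. Of 6 tested markers of the crypt base and of dividing cells, Mki67, Top2a and Pcna were called higher and Lgr5 and Axin2 lower. Of the 8 surface colonocyte markers 2 were called higher and 3 lower. The 5 tested fibroblast markers, 2 of macrophages and 1 of plasma cells were not called. The part of these cell types in the transporter changes was not tested. In 3 mice a measure lay outside the rest of their group. Gbp2, an interferon-induced GTPase, was at 11.28 in heme mouse 6 and between 4.68 and 5.64 in the other heme mice. Smooth muscle markers averaged 9.76 in control mouse 2 and from 6.08 to 7.63 in the other control mice. Distal colon position markers averaged 3.19 in control mouse 4 and from 6.81 to 8.94 in the other control mice.

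Heme mice had more transcript of 4 transporters, Abcc4, Abcc5, Abcc3 and Abcc1. Abcc4 changed by far the most among the 5 tested members, 11.7-fold, while Abcc5 rose 1.98-fold, Abcc3 1.45-fold and Abcc1 1.35-fold. Abcb1a, which had a strong signal in every mouse, did not pass the test by its representative probe set. Abcb1b and Abcc2 lay under the floor on every array. In a scraping of mixed cells, more cells of a type and more RNA per cell cannot be told apart.

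Of the 8 member probe sets that passed the floor, 7 were called higher and 0 lower by limma at an adjusted p of 0.05. Among all 15717 tested probe sets 26.1% were called higher and 24.3% lower. In 3 of the 8, those of Abcc4 and both of Abcc5, every heme mouse lay above every control mouse, which held for 10.6% of all tested probe sets. The median log2 change was 0.54 over the 5 tested member genes and -0.01 over all 9257 tested genes. Since 8 of 19 probe sets passed the filter, the counts do not cover all members. By gene, 4 of the 5 tested members were called higher, against 2470 of all 9257 tested genes. The other tested probe sets of Abcc1 and Abcc5 (1421378_s_at, 1427565_a_at) were over the floor on 4 of 6 control arrays. Both passed the filter only with heme arrays. A set high only in heme mice needs 6 of 9 arrays to pass, and one high only in control mice needs all 6. The call of Abcb1a 1419758_at held under 12 of 26 alternatives.

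**Figure D1:**
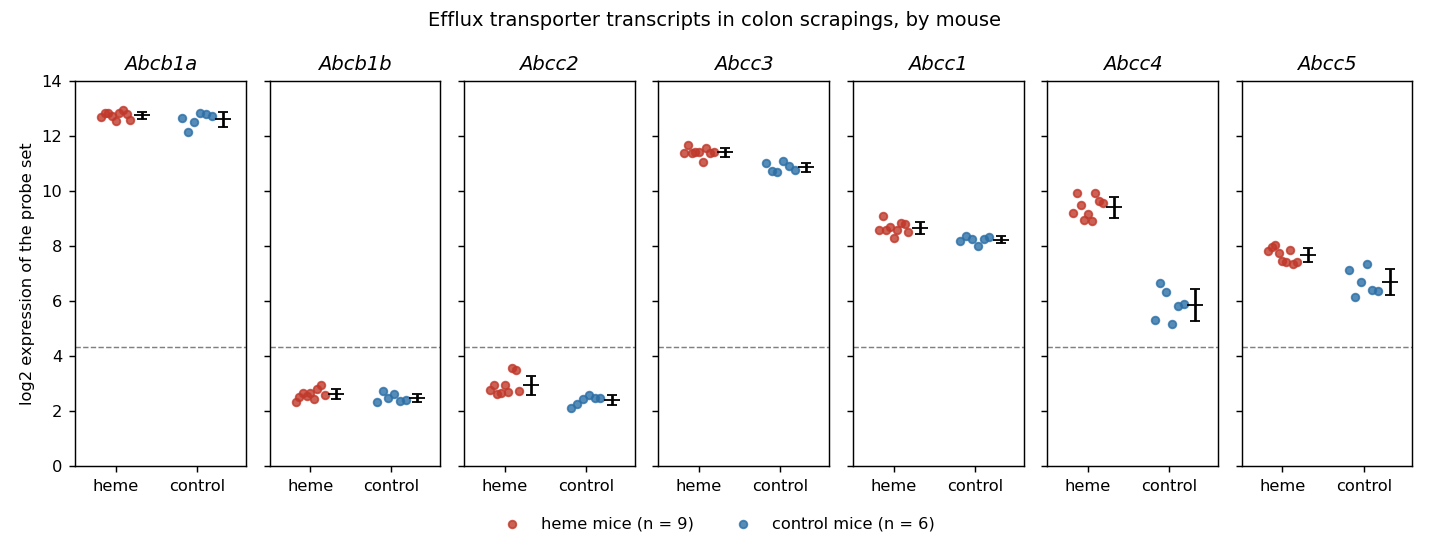
Log2 expression of the probe set that represents each of the 7 genes, with 1 point per mouse, heme mice (n = 9) in red and control mice (n = 6) in blue, the mean and SD beside them and the floor of 4.32 dashed. Levels of different genes come from different probes and are not comparable. The heme and control points of Abcc4 and Abcc5 do not overlap, and those of Abcb1b and Abcc2 lie under the floor.

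Abcc4 exports cyclic nucleotides, prostaglandins and, with glutathione, bile acids. Its log2 expression (probe set 1443870_at) had a lowest value of 8.90, a median of 9.51 and a highest value of 9.92 in heme mice, against 5.16, 5.86 and 6.67 in control mice. All 9 heme mice lay above all 6 control mice, with a gap of 2.23 between the groups. The mean was 9.42 ± 0.38 in heme mice (SD, n = 9) and 5.87 ± 0.57 in control mice (SD, n = 6). The log2 change was 3.55 ± 0.23 (SE), a fold of 11.7 with a 95% interval of 8.42 to 16.3 (limma, adjusted p = 1.98e-08). Only 10 of the 9257 tested genes had a larger log2 change, and 19 called genes had a log2 rise of 3 or more. Only 1 probe set carried Abcc4 as its single symbol, so no other analysed probe set of the gene bears on the value.

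RefSeq promoter windows (GRCm38.p6, 250 bases before to 50 after a start) were available for 5 of the 7 genes, in 6 windows. Abcc1 and Abcc3 are named only. The windows of Abcc4, the gene with the largest change among the members, and of Abcc5, the next, are shown 5′ to 3′ on the gene's strand. Abcc4 has 2 starts on the minus strand, with windows at chr14:118706170-118706469 and chr14:118676882-118677181. The window of Abcc5 is at chr16:20426345-20426644, minus strand. Capitals mark matches to the letters TGACNNNGC (antioxidant response element core), GCGTG (dioxin response element core), AGTTCA (a core of elements bound by the receptors PXR and CAR) and CCAAT, searched on both strands, with N any base.
Abcc4 window 118706170: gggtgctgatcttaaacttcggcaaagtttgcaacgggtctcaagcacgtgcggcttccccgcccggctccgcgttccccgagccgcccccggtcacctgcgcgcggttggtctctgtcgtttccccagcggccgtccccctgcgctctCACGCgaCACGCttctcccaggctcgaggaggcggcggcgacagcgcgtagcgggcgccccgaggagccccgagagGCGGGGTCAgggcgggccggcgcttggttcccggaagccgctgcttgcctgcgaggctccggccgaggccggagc
Abcc4 window 118676882: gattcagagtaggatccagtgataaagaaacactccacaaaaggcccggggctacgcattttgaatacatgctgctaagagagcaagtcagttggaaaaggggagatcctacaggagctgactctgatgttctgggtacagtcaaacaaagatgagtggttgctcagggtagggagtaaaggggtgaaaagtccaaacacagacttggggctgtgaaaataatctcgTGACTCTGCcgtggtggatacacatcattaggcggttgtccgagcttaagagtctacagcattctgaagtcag
Abcc5 window 20426345: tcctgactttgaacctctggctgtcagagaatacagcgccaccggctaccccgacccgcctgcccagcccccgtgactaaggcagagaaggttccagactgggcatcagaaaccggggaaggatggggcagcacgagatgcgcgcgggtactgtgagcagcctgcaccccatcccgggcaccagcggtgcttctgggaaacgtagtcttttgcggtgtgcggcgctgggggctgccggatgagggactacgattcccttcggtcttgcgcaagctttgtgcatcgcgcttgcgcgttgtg

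TGACNNNGC, the core of the element bound by the oxidant sensor Nrf2, was present in 4 of the 6 member windows and in 12.4% of all 32851 windows. In the upstream Abcc4 window the match begins 25 bases before the start and reads GCGGGGTCA, since it lies on the opposite strand. In the downstream Abcc4 window it begins 23 bases before the start and reads TGACTCTGC. The other matches are in the windows of Abcc2, TGACATAGC, and Abcb1a, GCGGAGTCA. GCGTG occurred 2 times in the upstream Abcc4 window, on the opposite strand, as in 32.4% of all windows at least once. AGTTCA was found once, in the Abcb1a window, and 14.0% of all windows hold it. CCAAT was found in the Abcb1b and Abcc2 windows and in 37.4% of all windows. No matches overlap. The Abcc5 window held none of the 4 motifs. The upstream Abcc4 window had a GC content of 72.7% with 41 CpG, the downstream one 47.3% with 6 CpG, and the Abcc5 window 63.0% with 24 CpG. The median over all windows was 52.7%. A match of letters is a description and not a binding site.

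Abcc5 exports cyclic nucleotides and folates, and its protein is described as a heme exporter in Caenorhabditis elegans and in mammalian cells. Its log2 expression (1418042_a_at) had a lowest value of 7.35, a median of 7.74 and a highest value of 8.04 in heme mice, against 6.15, 6.55 and 7.34 in control mice. The groups did not overlap, but the lowest heme mouse lay only 0.0041 above the highest control mouse, control mouse 4. The mean was 7.67 ± 0.27 in heme mice (SD, n = 9) and 6.69 ± 0.47 in control mice (SD, n = 6). The log2 change was 0.99 ± 0.17 (SE), a fold of 1.98 with a 95% interval of 1.53 to 2.56 (limma, adjusted p = 2.65e-04). With the smooth muscle marker level as a covariate, the change was 0.47 and was not called (limma, adjusted p = 0.0986). The marker level was itself mostly lower in heme mice, so diet and marker level cannot be fully told apart in that fit. Over all 27 alternatives the adjusted p ran from 4.92e-06 to 0.0986. The plot of transporters against smooth muscle markers shows that control mouse 2, highest for the markers, was lowest for Abcc5.

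Abcc5 had 10 probe sets, and they differ in signal. The other tested one (1427565_a_at) had a lowest, median and highest value of 5.14, 5.39 and 5.95 in heme mice, against 3.95, 4.52 and 4.82 in control mice. It lay over the floor on 9 of 9 heme arrays and 4 of 6 control arrays, and again the groups did not overlap. Its log2 change was 1.04 ± 0.16 (SE; limma, adjusted p = 6.56e-05), close to that of the representative probe set. A further one (1438056_x_at) was over the floor on 5 of 9 heme arrays and 0 of 6 control arrays and was not tested, and the other 7 were under the floor on all arrays.

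Abcc3 carries glucuronides and bile salts across the basolateral membrane. Its log2 expression (1428988_at) had a lowest value of 11.05, a median of 11.41 and a highest value of 11.66 in heme mice, against 10.68, 10.84 and 11.11 in control mice. Of the 9 heme mice 8 lay above every control mouse, and heme mouse 6 fell within the control range. The log2 change was 0.54 ± 0.09 (SE), a fold of 1.45 with a 95% interval of 1.28 to 1.66 (limma, adjusted p = 1.38e-04). Among tested genes 861 had a larger log2 change.

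Abcc1 exports glutathione conjugates, among them leukotriene C4, from the basolateral side. Its log2 expression (1452233_at) had a lowest value of 8.31, a median of 8.60 and a highest value of 9.09 in heme mice, against 8.02, 8.25 and 8.37 in control mice. The groups overlapped by 1 heme mouse, and the other 8 lay above every control mouse. The log2 change was 0.43 ± 0.10 (SE), a fold of 1.35 (limma, adjusted p = 0.00200). The other probe set (1421378_s_at) changed in the same direction by 0.76 ± 0.18 (SE; limma, adjusted p = 0.00268). It was over the floor on 8 of 9 heme arrays and 4 of 6 control arrays, near the floor in controls. With the smooth muscle level as a covariate its change was 0.58 and was not called (limma, adjusted p = 0.123, against 1.31e-04 to 0.123 over its 25 alternatives).

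Abcb1a encodes P-glycoprotein, the apical pump of many hydrophobic drugs. Its representative probe set (1419759_at) had a lowest log2 value of 12.55, a median of 12.79 and a highest value of 12.94 in heme mice, against 12.13, 12.69 and 12.83 in control mice. The groups overlapped, with 3 of 9 heme mice above every control mouse. The log2 difference was 0.15 ± 0.10 (SE), with a 95% interval of -0.06 to 0.36 (limma, adjusted p = 0.222). Its other probe set (1419758_at) was called, with a log2 change of 0.26 ± 0.10 (SE; limma, adjusted p = 0.0434). That call was lost under 14 of 26 alternatives, over which the adjusted p ran from 0.0123 to 0.848. With the smooth muscle level as a covariate the log2 difference turned to -0.04 (limma, adjusted p = 0.848), and without control mouse 2 it was 0.16. Without control mouse 2, the representative probe set differed by 0.05.

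Abcb1b, the second mouse P-glycoprotein gene, gave values from 2.34 to 2.95 in heme mice and from 2.35 to 2.72 in control mice (1418872_at). Its other probe set (1446701_at) ran from 1.82 to 2.06 in heme mice and from 1.78 to 1.98 in control mice. Abcc2, the apical exporter of glutathione and glucuronide conjugates, had a lowest value of 2.64, a median of 2.77 and a highest value of 3.56 in heme mice, against 2.10, 2.47 and 2.58 in control mice (1450109_s_at). All of these lie under the floor of 4.32, so no fold is given. All 9 heme values of Abcc2 were above all 6 control values within that range. Without the signal filter Abcc2 was called higher (limma, adjusted p = 0.00964).

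**Figure D2:**
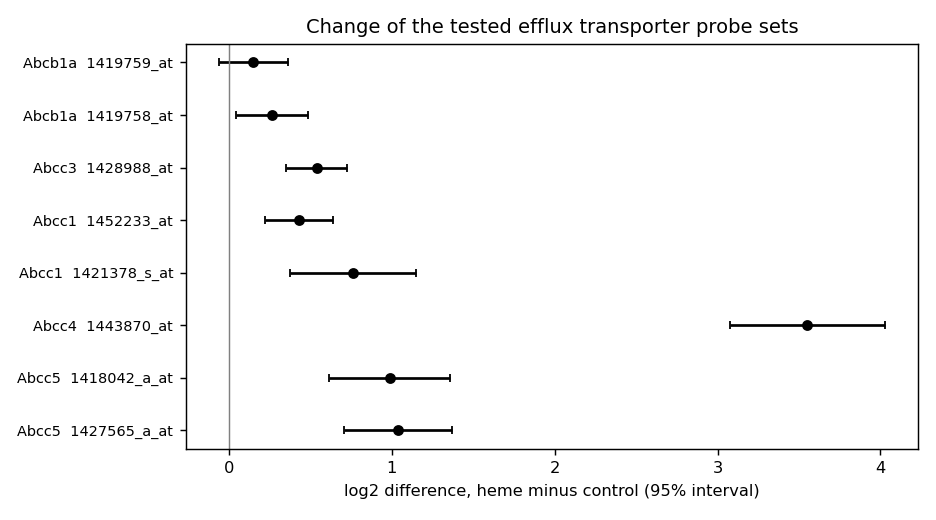
Log2 difference, heme minus control, of the 8 tested probe sets, with points for the estimate and bars for the 95% interval. The Abcc4 probe set, at 3.55, stands to the right of all others, and the interval of 1 Abcb1a probe set includes 0.

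Measured by representative probe sets and without a covariate, most pairs of members changed by different amounts. The changes of 5 members were compared in 10 pairs with an exact two-sided permutation test over all 5005 splits of the arrays, whose smallest possible p is 0.0002, with Benjamini-Hochberg adjustment over the pairs. Of the pairs 8 passed. Abcc4 exceeded Abcb1a by 3.40 ± 0.35, Abcc1 by 3.12 ± 0.22, Abcc3 by 3.01 ± 0.31 and Abcc5 by 2.56 ± 0.43 on the log2 scale (SE, adjusted exact p = 0.0004 each). Abcc5 exceeded Abcb1a by 0.84 ± 0.18 (adjusted exact p = 0.0004), Abcc1 by 0.56 ± 0.26 (adjusted exact p = 0.0322) and Abcc3 by 0.45 ± 0.16 (adjusted exact p = 0.0160). For Abcc5 over Abcc1 only 1 of 9 heme mice lay above all control mice. With the smooth muscle level as a covariate, Abcc5 and Abcc1 both changed by 0.47 and Abcc3 by 0.41. Abcc5 and Abcc3 were thus close with the covariate. Without it, the other tested Abcc1 probe set changed by 0.76, so the order of Abcc5 and Abcc1 depends on these choices. Abcc3 exceeded Abcb1a by 0.39 ± 0.11 (adjusted exact p = 0.00833). The other Abcb1a probe set changed by 0.26, more than the representative one at 0.15, and was not used in the pairs. The pairs not passed were Abcc1 over Abcb1a, 0.28 ± 0.15 (adjusted exact p = 0.0599), and Abcc3 over Abcc1, 0.11 ± 0.13 (adjusted exact p = 0.375). Without heme mouse 6 and control mice 2 and 4, 9 of 10 passed, including Abcc1 over Abcb1a at 0.34 (adjusted exact p = 0.00577). Control mice 2 and 4 held the extremes of both Abcc1 and Abcb1a among control mice. Leaving out the 3 mice narrowed the spread of that difference, with an SE of 0.08 against 0.15, so the added pass is not independent evidence.

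The changes were also computed without the 3 mice that lay outside their group and with the smooth muscle marker level as a covariate. Without the 3 mice the log2 difference was 3.64 for Abcc4, 1.05 for Abcc5, 0.61 for Abcc3, 0.42 for Abcc1 and 0.08 for Abcb1a. With the covariate it was 4.13 for Abcc4, 0.47 for Abcc5, 0.41 for Abcc3, 0.47 for Abcc1 and -0.16 for Abcb1a. Abcc4, Abcc3 and Abcc1 were called in both settings, Abcc5 only without the 3 mice and Abcb1a in neither.

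**Figure D3:**
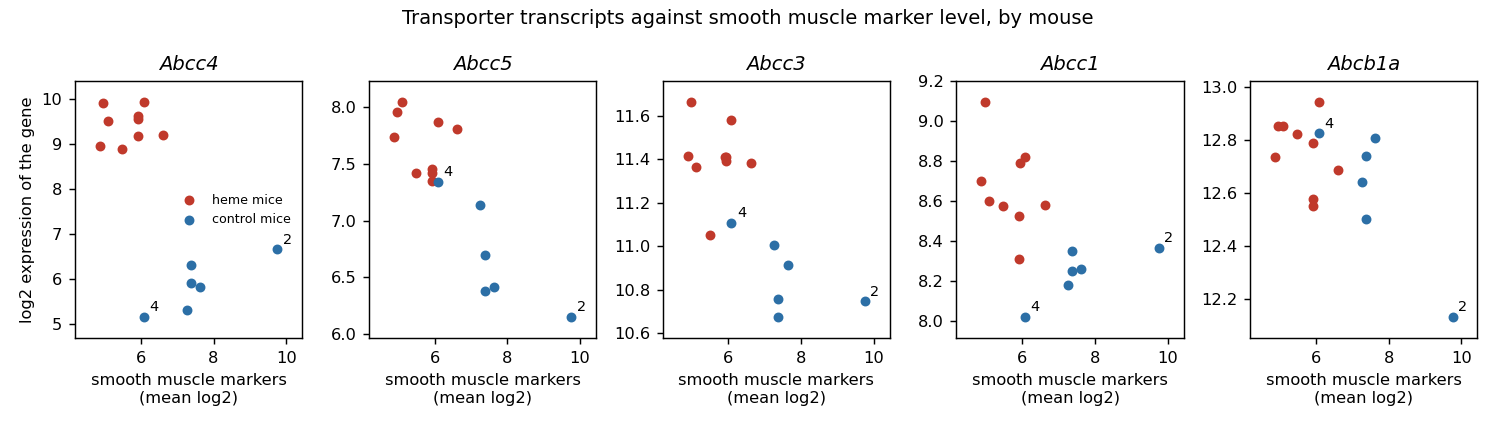
Log2 expression of the 5 tested transporter genes (y axis) against the mean log2 level of 4 smooth muscle markers (x axis), with 1 point per mouse, heme in red and control in blue, and control mice 2 and 4 numbered. Marker levels lie mostly lower in heme mice. Near a marker level of 6 the only control mouse is control mouse 4. It had the lowest Abcc4 and the lowest distal position markers of the control mice. Heme mice 5, 7, 8 and 9, near that level, lie above it in Abcc4. In Abcc5 the lowest of them, 7.35, is close to its 7.34, and in Abcb1a they lie on both sides of it.

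Other transporters of the same families did not share 1 direction. Of the 3 other tested ABCC and ABCB full transporters 2 were called lower and 0 higher. Abcc10, which transports drugs, changed by -0.69 ± 0.09 (SE; limma, adjusted p = 1.78e-05), with all 9 heme mice below all control mice. Cftr, the chloride channel, changed by -0.28 ± 0.08 (SE; limma, adjusted p = 0.00918). The other tested Cftr probe set differed by -0.14 and was not called. Among 6 ABC transporters that act as dimers, 4 were called higher and 1 lower. Abcg2, the apical exporter of drugs and porphyrins, rose by 0.53 ± 0.11 (SE; limma, adjusted p = 9.20e-04), with means of 11.91 in heme mice and 11.38 in control mice. Abcb8, a mitochondrial transporter, rose by 0.56 ± 0.11 (limma, adjusted p = 7.64e-04), with all 9 heme mice above all control mice. Abcb6, a porphyrin transporter, rose by 0.41 and Abcb10, a mitochondrial transporter tied to heme synthesis, by 0.32. Tap2, a peptide transporter for antigen presentation, changed by -0.87 ± 0.18 (limma, adjusted p = 8.38e-04). Its heme mean of 4.49 was near the floor, with 6 of 9 heme arrays over it, which limits the size of the change.

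Sterol and lipid ABC transporters moved both ways, with 1 of 6 tested called higher and 2 lower. Abca1, the cellular cholesterol exporter, changed by -1.39 ± 0.18 (SE; limma, adjusted p = 2.13e-05). Abca3, a lipid transporter, changed by -0.47 ± 0.11 (limma, adjusted p = 0.00191). Abcd3, a peroxisomal transporter of fatty acids, rose by 0.82 ± 0.07 (limma, adjusted p = 5.74e-07).

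Receptors and sensors known to control efflux transporters were called lower in 6 of 9 tested cases and higher in 0, with a median log2 change of -0.33. Hnf4a is among these 6, and its 3 other tested probe sets differed by -0.02 to 0.15 and were not called. Ppara, a fatty acid receptor, changed by -0.59 ± 0.22 (SE; limma, adjusted p = 0.0325). Its other tested probe sets changed by -0.80 to -0.67, of which 1 was not called. Vdr, the vitamin D receptor, changed by -0.57 ± 0.09 (limma, adjusted p = 9.67e-05), and Ahr, the aryl hydrocarbon receptor, by -0.45 ± 0.09 (limma, adjusted p = 6.33e-04). Nfe2l2, which encodes Nrf2, changed by -0.33 ± 0.08 (limma, adjusted p = 0.00446). Nr1i2, which encodes PXR, differed by 0.33 ± 0.14 and was not called (limma, adjusted p = 0.0620). Its other tested probe set differed by -0.09 and was not called. Nr1i3, which encodes CAR, was under the floor on all arrays.

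Enzymes that these sensors regulate, or that make the transporters' substrates, moved as follows. All 12 tested Nrf2 target enzymes were called higher, with a median log2 change of 1.23. Hmox1, the heme-degrading enzyme, was at least 23.1-fold higher, since all 6 control mice lay under the floor. Cbr3, a carbonyl reductase, rose by 3.59 ± 0.08 and Me1, malic enzyme, by 3.58 ± 0.32 (SE). Of 24 tested conjugation enzymes 16 were called higher and 3 lower, with a median of 0.43. Among the glutathione transferases, Gsta2 was at least 4.49-fold higher, Gsta3 rose by 3.64 ± 0.23 and Gstm6 by 1.20 ± 0.20. The other tested probe set of Gsta3 was also called higher, with a smaller change of 1.98.

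Of 6 tested PXR and CAR target enzymes 3 were called higher and 2 lower. Aldh1a7 rose by 2.26 ± 0.13 and Aldh1a1 by 0.97 ± 0.14; both are aldehyde dehydrogenases. Ces2a, a carboxylesterase, changed by -1.16 ± 0.19. Cyp3a11, Cyp2b9, Cyp2b10 and Cyp2b13 were under the floor on all arrays. Of the aryl hydrocarbon receptor targets only Tiparp was tested, with a difference of 0.20 ± 0.15 (limma, adjusted p = 0.308). It has 3 tested probe sets, and the other 2 differed by 0.43 and 0.48, of which 1 was called higher. Of 5 tested apical anchors of ABC transporters 1 was called, Ezr, a link of membrane proteins to actin, which rose by 0.31 ± 0.06 (limma, adjusted p = 3.72e-04). Among 10 tested organic ion carriers 3 were called higher and 4 lower. Slc10a2, the apical bile acid importer, changed by -2.54 ± 0.24 and Slc51a, a subunit of the basolateral bile acid exporter, by -1.23 ± 0.17. Slc47a1, an exporter of organic cations, rose by 0.97 ± 0.26. Its control mean of 3.93 lay under the floor, with 2 of 6 control arrays over it, which limits the size of the change.

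**Figure D4:**
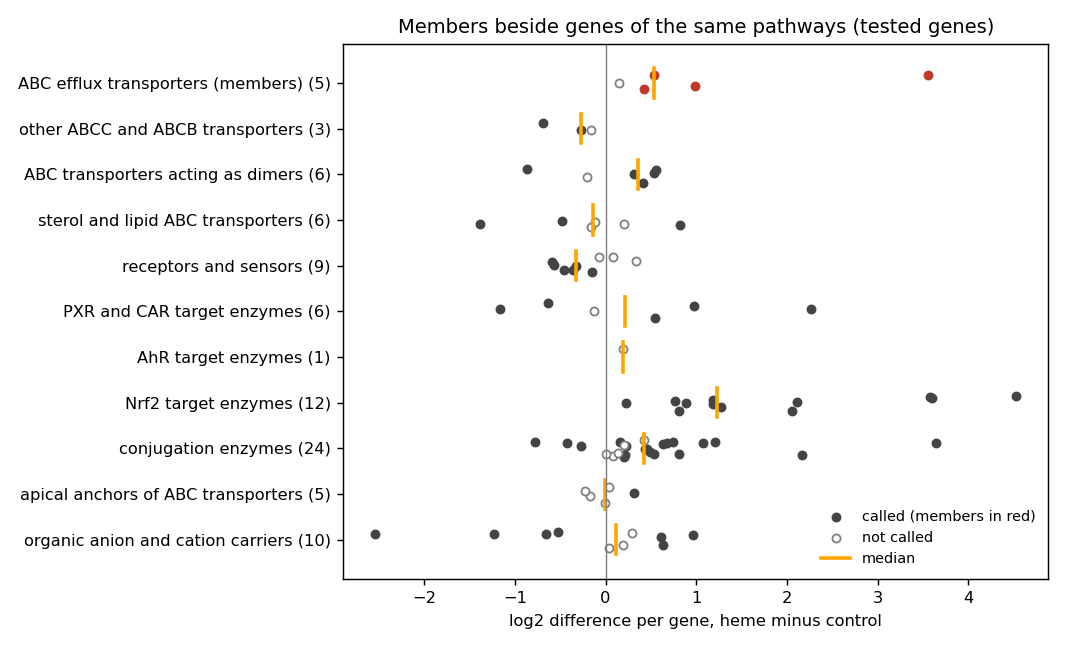
Log2 difference, heme minus control, of each tested gene in the 5 tested members and 10 pathway lists, with filled points for called genes, open points for genes not called and a bar for the list median. Hmox1 and Gsta2 are drawn at their lower bound. The Nrf2 target enzymes lie all to the right of 0, with a median of 1.23, and the receptors and sensors have a median of -0.33.

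Genes whose mouse-to-mouse variation was most like that of each member were found among the tested genes, from the deviations of 15 arrays from their group means. These correlations share the arrays and the tissue content of each scraping and are descriptions. Abcc4 was most like Cd302 (r = 0.88), Dpysl3 (0.84) and Fn1 (0.83). Abcc5 was most like Macrod2 (r = 0.95), Atg2b (0.92) and Cyp2c65 (0.90). Abcc3 was most like Tmigd1 (r = 0.89), Eif4ebp1 (0.87) and Fam118a (0.87). Abcc1 was most like Slc3a2 (r = 0.86), Phc3 (0.80) and Ylpm1 (0.77). Abcb1a was most like Tbce (r = 0.94), Ccs (0.93) and Pbld1 (0.92). Of the genes most like Abcc4, Cd302 rose by 0.57, Dpysl3 changed by -1.16 and Fn1 differed by -0.67 without being called.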

How the data were processed

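Colon scrapings of 15 mice, 9 heme and 6 control, were measured on 1 array each. The authors deposited 1 log2 value per probe set and array, made with GCRMA 2.22.0 per the submitters' processing notes. GCRMA subtracts background modelled on probe sequence, makes arrays comparable and combines the probes of a set. Any later step is not given in the sources used here. Detection calls were not used, so a signal of 20 on at least 6 arrays, the size of the smaller group, served as the filter. The number of arrays limits the precision. Control replicate 5 was not analysed here.

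Symbols came from the array's annotation, which can be old. Of 45101 probe sets 34958 carried a single symbol, 932 carried several and 9211 none. The set of highest mean signal stood for its gene. Differences, heme minus control, were tested in limma 3.58.1 under R 4.3.3 by lmFit with eBayes; p-values were adjusted after Benjamini and Hochberg over 15717 tested probe sets, at a threshold of 0.05. Where all arrays of a group lay under the floor, the fold was taken against the floor. The procedure was tested on simulated data. The members, gene lists and tests were chosen with earlier results of these data known. All members were named, the 3 largest called changes of each pathway list, Abcg2, Nr1i2, Nfe2l2 and Ahr, and the 3 genes most like each member. Abcb6, Abcb10, Hnf4a, Tiparp, Gbp2, Abcg5, the single cell type markers given by name and genes under the floor were chosen after their values were seen. No named list gene had another tested probe set called in the opposite direction.

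Alternatives were no filter, a floor of 100, 1 probe set or the mean per gene, quantile normalization, median centring, array weights, a trended and robust variance, the replicate block, label number, smooth muscle or distal position as a covariate, and mice left out.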

Additional observations from a re-analysis of the deposited data

Results flagged for a closer look

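The Abcc3 value of heme mouse 6 stood apart from its group. It was 11.05 on the log2 scale, against 11.37 to 11.66 in the other 8 heme mice, a gap that is 0.517 of the range of the group. It was the only one among 16 groups of arrays looked at, and chance picks out about 5% of groups. The same mouse had the Gbp2 level of 11.28. Leaving heme mouse 6 out left Abcc3 called, within the 0.50 to 0.59 range over all mice left out in turn. The cause was not tested.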

How the results depend on the processing

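Abcc4, Abcc3 and Abcc1 kept their direction and their call under all 28 alternatives, with log2 changes of 3.40 to 4.13, 0.41 to 0.61 and 0.38 to 0.60. Abcc5 kept its direction under 27 (0.47 to 1.15) and lost its call under 1, the smooth muscle covariate (0.47, limma, adjusted p = 0.0986). When the probe sets of each gene were averaged, Abcc5 was not tested. Abcb1a was called under 0 of 28 alternatives and ran from -0.16 to 0.21, with -0.16 under the smooth muscle covariate (limma, adjusted p = 0.322, against 0.0808 to 0.579 over its alternatives). Leaving out each mouse gave 3.41 to 3.71 for Abcc4, 0.88 to 1.12 for Abcc5, 0.50 to 0.59 for Abcc3, 0.38 to 0.47 for Abcc1 and 0.05 to 0.19 for Abcb1a. Probe sets called higher were 2641 of 15717 with the smooth muscle covariate, against 4103. With 1 probe set per gene, 2516 genes were called higher and 2445 lower of 9257, and with averaged probe sets 2362 and 2006 of 8319, since fewer units are tested. Replicate numbers did not pair the mice: same-number correlations ran from -0.21 to 0.13, and 0 control mice correlated best with their own number. With the replicate block 4 members were called, Abcc4 at 3.53 and Abcc3 at 0.54, and 3295 probe sets were called higher and 2928 lower. Values near the floor (Abcc1 1421378_s_at, Abcc5 1427565_a_at) limit the size of those changes.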

Other observations

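Abcg5, part of the sterol exporter of the apical membrane, was not tested because it was over the floor on 5 control arrays and 0 heme arrays. Its control mean, 5.72 ± 1.23 on the log2 scale (SD, n = 6), lay 2.63-fold above the floor, and all heme mice lay under the floor. The difference was not tested. Among 20 relations between members within groups, 1 passed after adjustment. By their representative probe sets, Abcc1 and Abcc5 moved oppositely across the 6 control mice (Pearson r = -0.94, exact permutation p = 0.00139, adjusted p = 0.0278; Spearman rho = -1.0, exact permutation p = 0.00278). The other tested Abcc1 probe set (1421378_s_at) did not share this order. It was lowest in control mouse 2, at 4.13, where Abcc5 was also lowest, at 6.15. Its relation with Abcc5 was not tested. Control mice 2 and 4 had the representative Abcc1 values farthest from the control median, and without them r was -0.87. That value rests on only the few control mice left. The 2 mice are also those outside the group in smooth muscle and distal position markers. In the 9 heme mice the same relation had r = 0.46 (exact permutation p = 0.223, adjusted p = 0.302; rho = 0.43, exact permutation p = 0.25). The difference between the groups was not tested. By representative probe sets, control mouse 2 had the highest Abcc1 and Abcc4 and the lowest Abcc5 and Abcb1a of the control mice. Control mouse 4 had the lowest Abcc1 and Abcc4 and the highest Abcc5, Abcc3 and Abcb1a.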
